A study of Mus musculus with 6 samples.

Results

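The replication-dependent histone genes encode the proteins that package newly copied DNA: the core histones H2A, H2B, H3 and H4, and the linker histone H1. They were chosen by name, as the protein-coding genes whose GENCODE vM21 symbol begins with Hist1h, Hist2h, Hist3h or Hist4h, and 67 of the 54309 gene identifiers in the table met the rule. The 67 genes comprised 6 H1, 18 H2A, 18 H2B, 12 H3 and 13 H4 genes, of which 54 lie in the Hist1 cluster on mouse chromosome 13, 10 in the Hist2 cluster on chromosome 3, 2 in the Hist3 cluster on chromosome 11 and 1, *Hist4h4*, on chromosome 6. The rule itself used no measured value, but the family was proposed with earlier results of these tumors known, so its group differences are descriptions.

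RNA was sequenced from subcutaneous MCA205 tumors, a chemically induced fibrosarcoma line of C57BL/6 mice, grown from cells injected into female C57BL/6J mice that, per the study's methods, were 7 weeks old. Control tumors (n = 3) came from mice that drank MilliQ water, and FF-10101 tumors (n = 3) from mice given 0.1 mg/mL FF-10101, a kinase inhibitor used in the study against CSF1R, in the drinking water from day 1. All 6 tumors were taken on day 8, and the study asked what the drug changed in the tumor and its immune infiltrate. The labels do not say whether each tumor came from a different mouse, so the p values measure the spread between these tumors.

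Histone mRNAs are made in large amounts during S phase, when DNA is copied, and fall when copying stops. Unlike almost all other mRNAs, they normally end just past a short stem-loop bound by SLBP and carry no poly(A) tail. Some histone genes can also be read through the stem-loop to a poly(A) signal, which gives tailed transcripts that are known from cells that have left the cycle. In bulk tumor RNA, fewer dividing cells and less histone RNA per cell cannot be told apart.

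The stem-loop was sought in the vM21 transcripts to see which of these genes carry it, as the motif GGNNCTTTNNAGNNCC with 6 paired bases on each side of a 4-base loop, on the transcript's own strand, and within 150 bases after the stop codon. It was found in 44 of the 67 histone genes and in 46 (0.211%) of the 21783 protein-coding genes searched. The 2 genes outside the family were *H2afx* and *H2bfm*, both histone genes. The following lines show each pair of stem arms found in the family, in capitals, with abundant members as examples where they carry it. *Hist2h2ac* had the arms of the first line with the loop of *Hist1h4i*, a form not shown.

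Hist1h1c, Hist3h2a and Hist2h2aa2: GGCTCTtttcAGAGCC

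Hist1h3c: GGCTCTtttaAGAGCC

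Hist1h4i: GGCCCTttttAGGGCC

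Hist1h4d and Hist1h4n: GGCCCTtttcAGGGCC

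Hist1h4b and Hist1h4j: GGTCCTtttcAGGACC

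All 32 H1, H2A, H2B and H3 genes with a match in the transcript that runs farthest past the stop codon had the same stem arms, and differed in the last loop base. The H4 genes had other arms, GGCCCT in 9 genes and GGTCCT in 2 genes. Of the 24 genes with no match in that transcript, 15 were annotated with at most 2 bases after the stop codon, so their 3' end could not be searched. The abundant *Hist1h2bc* and *Hist2h2be* had no match although 742 and 2192 bases were annotated after their stop codons.

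A poly(A) signal (AATAAA or ATTAAA) lay in the last 40 bases of at least 1 transcript in 17 of the 54 histone genes with annotated bases after the stop codon (31.5%), against 79.1% of 21042 protein-coding genes. Of the 6 genes with the highest counts, 4 had one. The bases around their signals are shown because they mark the tailed form, with the signal in capitals. The lines stop short of the annotated end, which lies 15 to 28 bases after the signal.

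Hist1h1c: gtgtatgcttctAATAAAaagcgtttagtt

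Hist3h2a: aggtatatgcccAATAAAataagagtacgt

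Hist2h2be: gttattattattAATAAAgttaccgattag

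Hist1h4i: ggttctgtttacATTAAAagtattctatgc

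In *Hist1h1c*, *Hist3h2a* and *Hist1h4i* the annotated transcript ran 840, 1643 and 330 bases beyond the stem-loop, so their annotation holds both features. *Hist2h2aa2*, with 35 bases beyond its stem-loop, had no such signal. The sources used here do not say whether the library kit was used after poly(A) selection or after removal of ribosomal RNA, so how completely histone RNA without a tail was sampled is unknown.

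Sequencing gave 9143806 to 13258258 reads per tumor, and values are normalized counts (reads divided by the tumor's size factor). A count of 0 allows up to 3 reads, or 2.29 to 3.38 normalized counts depending on the tumor. Control replicate 1 stood apart from the other Control tumors: with it left out, limma called 3051 of 13963 genes, against 6 with all tumors. Its summed level of 8 macrophage markers was 62269 normalized counts, against 35129 and 35711 in the other Control tumors and 22438 to 31322 in the FF-10101 tumors. Sums of 8 neutrophil markers ran from 631 to 1502 in Control tumors and from 1712 to 2601 in FF-10101 tumors, and no marker of these lists was at 0 in every tumor. With all tumors the sums of T cell, B cell, NK cell, endothelial, skeletal muscle and keratinocyte markers overlapped between the groups. Yet all 5 endothelial markers were higher at an unadjusted p under 0.05 (limma), against 8.77% of all genes. Without Control replicate 1, limma called all 5 endothelial, all 5 NK cell and 6 of 7 tested neutrophil markers higher, against 12% of all genes. FF-10101 replicate 1 had a keratinocyte marker sum of 987 normalized counts, against 19.6 to 175 in the other tumors. The 8 fibroblast and sarcoma markers, which host stroma shares with MCA205 cells, summed to 257931, 133513 and 101136 in Control tumors and to 290379, 204120 and 194109 in FF-10101 tumors, so the labelled line was not identified by them. The part of these cell types in the histone values was not tested.

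Reads were found for 63 of the 67 histone genes, and the family summed to 2601, 2367 and 2434 normalized counts in the Control tumors and to 2391, 2119 and 2123 in the FF-10101 tumors. The groups overlapped by a narrow margin, and the ratio of the means was 0.896. A few genes made up most of that sum. The 6 genes averaging 50 or more normalized counts over the 6 tumors (*Hist1h1c*, *Hist1h2bc*, *Hist3h2a*, *Hist2h2aa2*, *Hist1h4i* and *Hist2h2be*) held 84.9% to 91.9% of the family's counts in each tumor. No read was assigned to *Hist1h2aa*, *Hist1h2ba*, *Hist1h2ao* or *Hist2h2ab*. The first 2 of these encode testis histones, and *Hist1h1t*, the testis H1, had a mean of 0.682. Testis germ cell markers were close to absent too, with 5 of 7 detected and sums of 5.43 to 12.2.

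To compare genes, levels were taken per kilobase of annotated transcript. In *Hist1h1c*, *Hist3h2a* and *Hist1h4i* that length runs past the stem-loop, and which 3' end was sampled is unknown, so the order depends on the annotated lengths. The level of *Hist2h2aa2* also rests on how reads were split with *Gm20632*, which shares its sequence. On this scale *Hist1h1c* had the highest level (mean 657, 600 to 741 over the tumors). *Hist1h2bc* followed (493, 449 to 555), without overlap between them. *Hist2h2aa2* (291, 158 to 484) overlapped *Hist1h2bc* and *Hist1h4i* (127, 53.8 to 240), and *Hist1h4i* overlapped *Hist3h2a* (81.8, 67.9 to 115). A gap followed. The next genes, *Hist1h2ag*, *Hist2h2be*, *Hist1h3c*, *Hist1h2ae* and *Hist1h4n*, had mean levels of 24.6 to 19.5 per kilobase, and their ranges over the tumors overlapped.

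The drug's effect was tested in the 12 histone genes averaging 10 or more normalized counts, within a limma fit over all 13963 such genes. None was called at an adjusted p of 0.05 by limma, and none by limma-voom on the recovered reads, with 0.043% of all genes called. At an unadjusted p under 0.05, limma gave 2 lower genes (7.49% of all genes were lower at that level) and 1 higher gene (8.77%). The groups did not overlap, in the lower direction, for 4 of the 12 (against 9.37% of the 13963 genes) and, in the higher direction, for 1 (against 10.9%). In both counts the higher gene was *Hist2h3c1*, which reached a mean of 10 through the FF-10101 tumors alone. The median log2 fold change (FF-10101 minus Control, on the log2(normalized count + 1) scale) was −0.11 over the 12 genes, which include *Hist2h3c1* with reads in FF-10101 tumors alone, and 0.02 over all genes tested. The plot of the 12 genes by tumor shows how closely the groups lay for most of them.

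**Figure D1:**
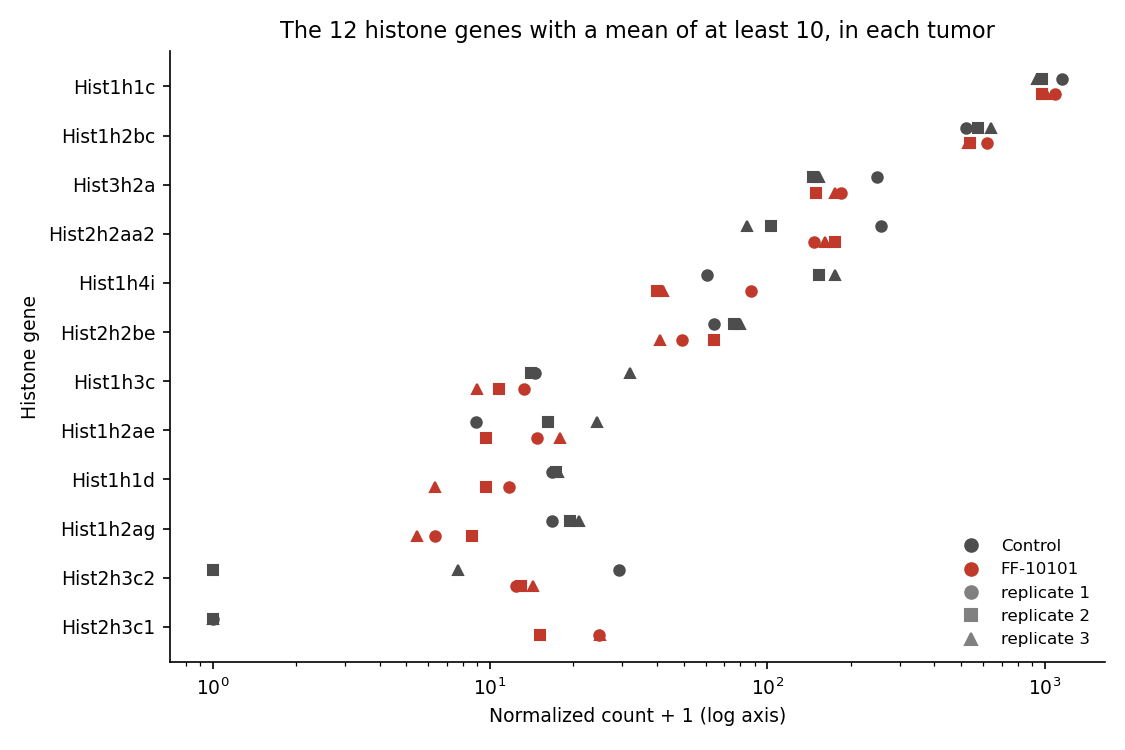
Normalized count + 1 (log axis) of the 12 histone genes averaging 10 or more, with 1 point per tumor, Control tumors in gray above and FF-10101 tumors in red below, and the symbol giving the replicate. The groups overlap for *Hist1h1c*, *Hist1h2bc* and *Hist3h2a*, all FF-10101 points lie below all Control points for *Hist1h2ag*, *Hist1h1d*, *Hist1h3c* and *Hist2h2be*, and all 3 Control points of *Hist2h3c1* lie at 0 counts.

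*Hist1h1c*, which encodes the linker histone H1.2, had 1156, 978 and 936 normalized counts in the Control tumors and 1088, 979 and 1008 in the FF-10101 tumors. The FF-10101 values lay within the Control range, with a log2 fold change of 0.01 ± 0.15 (SE, n = 3 per group; limma, adjusted p = 0.986). *Hist1h2bc*, an H2B gene, had 519, 575 and 641 counts against 617, 535 and 529, again with overlap (log2 fold change −0.04 ± 0.15; limma, adjusted p = 0.904). *Hist3h2a* had 248, 146 and 153 counts against 184, 149 and 174. Here Control replicate 1 was the highest tumor, and the log2 fold change of −0.07 ± 0.25 (limma, adjusted p = 0.904) was 0.17 without that tumor. These 3 genes, which hold most of the family's reads, thus differed between the groups by less than the spread between tumors.

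The abundant *Hist1h4i* and *Hist2h2be* had lower means in the FF-10101 tumors, and neither was called. *Hist1h4i*, the leading H4 gene, had 59.7, 152 and 174 normalized counts in the Control tumors and 86.3, 39.1 and 40.9 in the FF-10101 tumors. Control replicate 1 lay within the FF-10101 range, and the log2 fold change of −1.16 ± 0.48 gave an unadjusted p of 0.042 (limma, adjusted p = 0.295). Without Control replicate 1 the log2 fold change was −1.63 and *Hist1h4i* was called lower (limma, adjusted p = 0.017), as were 9.88% of all genes. *Hist2h2be* had 63.04, 74.98 and 78.8 counts against 48.1, 62.97 and 40, so that the groups were apart by under 1 count (log2 fold change −0.53 ± 0.28; limma, adjusted p = 0.371).

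Among the genes with a mean of 10 to 50, *Hist1h2ag*, an H2A gene, had 15.8, 18.5 and 20.0 normalized counts in the Control tumors and 5.35, 7.60 and 4.44 in the FF-10101 tumors. The groups lay well apart, and the log2 fold change was −1.51 ± 0.49 (unadjusted p = 0.015; limma, adjusted p = 0.239). *Hist1h1d*, which encodes H1.3, had 15.8, 16.3 and 16.6 counts against 10.7, 8.69 and 5.33 (log2 fold change −0.95 ± 0.48; limma, adjusted p = 0.361). *Hist1h3c*, an H3 gene, had 13.5, 13.0 and 31.1 counts against 12.2, 9.77 and 8.00 (log2 fold change −0.78 ± 0.51; limma, adjusted p = 0.470). All 3 genes had every FF-10101 tumor below every Control tumor, for *Hist1h3c* by a narrow margin (13.0 against 12.2). In *Hist1h2ae*, another H2A gene, the groups overlapped (7.88, 15.2 and 23.3 counts against 13.8, 8.69 and 16.9; log2 fold change −0.15 ± 0.54; limma, adjusted p = 0.906).

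Apart from *Hist1h1c*, the tested genes with log2 fold changes above 0 all lay in the Hist2 cluster, where the annotation holds near-identical copies. *Hist2h3c1*, an H3 gene, was at 0 in all 3 Control tumors and had 23.7, 14.1 and 24.0 normalized counts in the FF-10101 tumors, which is at least 6.20-fold higher when each Control tumor is set at 3 reads. With all tumors it did not pass (log2 fold change 4.396 ± 0.72; limma, unadjusted p = 0.000297 and adjusted p = 0.175). It was called without a minimum count (limma, adjusted p = 0.038, with 0.0707% of 24056 identifiers called) and without Control replicate 1 (limma, adjusted p = 0.006). The gene entered each fit through its reads in the FF-10101 tumors alone, so its p values and calls are descriptions and no support for a rise. Yet it had no 31-base word of its own, and all were shared with *Gm20634*, so the split of reads between these copies rests on the quantification. *Hist2h3b*, also without a word of its own, went the other way, with 2.25, 5.43 and 6.66 counts in the Control tumors and 0 in each FF-10101 tumor, at least 1.75-fold lower.

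Summed over *Hist2h3b*, *Hist2h3c1*, *Hist2h3c2* and the genes they share sequence with, *Gm20628* and *Gm20634*, the levels were 101, 48.9 and 39.9 normalized counts in the Control tumors and 80.2, 60.8 and 91.6 in the FF-10101 tumors. The groups overlapped in this sum. *Hist2h2aa2*, whose words are all shared with *Gm20632*, had 255.5, 102 and 83.2 counts against 147, 175 and 160 (log2 fold change 0.30 ± 0.40; limma, adjusted p = 0.722), with Control replicate 1 above all other tumors. It was called higher without that tumor (log2 fold change 0.79; limma, adjusted p = 0.030, with 12% of all genes called higher). Its sum with *Hist2h2aa1*, *Gm20632* and *Gm20633* was 326, 125 and 96.5 counts against 196, 254 and 258. *Hist2h3c2* had 28.1, 0 and 6.66 counts against 11.5, 11.9 and 13.3 (log2 fold change 1.12 ± 1.13; limma, adjusted p = 0.639).

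The remaining 55 histone genes had means under 10 normalized counts and were not tested one by one, and 51 of them had a read. Most were at or near the counting limit, with a median of 3.27 counts over the 51 genes, so they are described by their sum. That sum was 219.5, 276 and 269.5 normalized counts in the Control tumors and 144, 118 and 99.6 in the FF-10101 tumors. Every FF-10101 tumor lay below every Control tumor, the ratio of the means was 0.472, and leaving out any 1 tumor gave ratios of 0.427 to 0.514. As shares, the Control tumors had 20.2, 27.8 and 26.5 CPM (reads scaled to a fixed library total) and the FF-10101 tumors 14.2, 11.8 and 9.73 CPM. The exact (Clopper-Pearson) 95% intervals, which cover counting error only, reached from 17.5 to 31.4 over the Control tumors and from 8.01 to 16.4 over the FF-10101 tumors.

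The split by mean level was made after the values were seen, so the difference carries no test. For comparison, the 6352 identifiers whose means lay in the same range summed to 15883 to 17424 normalized counts in the Control tumors and to 17830 to 19417 in the FF-10101 tumors, a ratio of 1.14. The 6 genes averaging 50 or more summed to 2301, 2028 and 2067 against 2171, 1940 and 1952, and the 6 with a mean of 10 to 50 to 81.0, 63.03 and 97.6 against 77.1, 60.8 and 72.0, both with overlap. In the middle band the overlap came from *Hist2h3c1*, which was at 0 in the Control tumors and reached a mean of 10 through the FF-10101 tumors alone. Without it, a step added after seeing the data, the band summed to 81.0, 63.03 and 97.6 against 53.5, 46.7 and 48.0. All FF-10101 tumors then lay below all Control tumors. Dropping a gene seen to be higher in FF-10101 tumors favors that outcome, so the separation is no support for a difference.

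**Figure D2:**
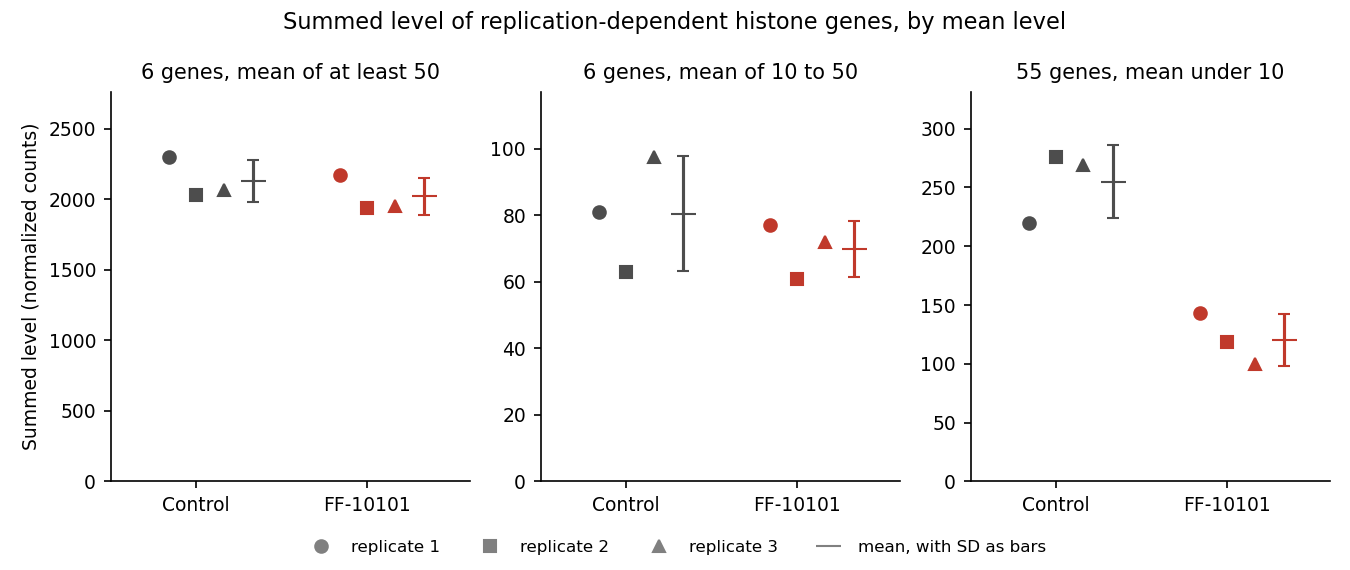
Summed normalized counts of the histone genes in 3 bands of mean level, with 1 point per tumor, the symbol giving the replicate, and the group mean with its SD (n = 3) at the right of each group. In the band under 10 all FF-10101 tumors (99.6 to 144) lie below all Control tumors (219.5 to 276), and in the band of 10 to 50, which includes *Hist2h3c1*, the groups overlap.

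Gene by gene, 47 of the 51 low genes had a lower mean in FF-10101 tumors, against 45.8% of the 6352 identifiers in that range. The groups did not overlap, in the lower direction, for 14 of the 51 (27.5%), against 4.09% of those identifiers, and for none in the higher direction, against 5.76%. Without Control replicate 1, 45 of the 51 had the lower mean, against 43.3% of the 6352 identifiers. The highest of the 6 values fell in a Control tumor for 44 of the 51 genes, spread over Control replicates 1, 2 and 3 as 13, 17 and 14 genes. That last count was not made for the 6352 identifiers, so it has no background beside it. The 4 low genes with a higher mean in FF-10101 tumors were *Hist2h2aa1*, *Hist1h2bp*, *Hist1h3b* and *Hist4h4*, and each of them was at 0 in at least 2 Control tumors. Genes with a lower mean had such zeros too. *Hist2h2ac*, *Hist1h2af*, *Hist1h2an*, *Hist1h2ak*, *Hist1h2br*, *Hist1h2bl* and *Hist2h3b* were at 0 in every FF-10101 tumor.

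**Figure D3:**
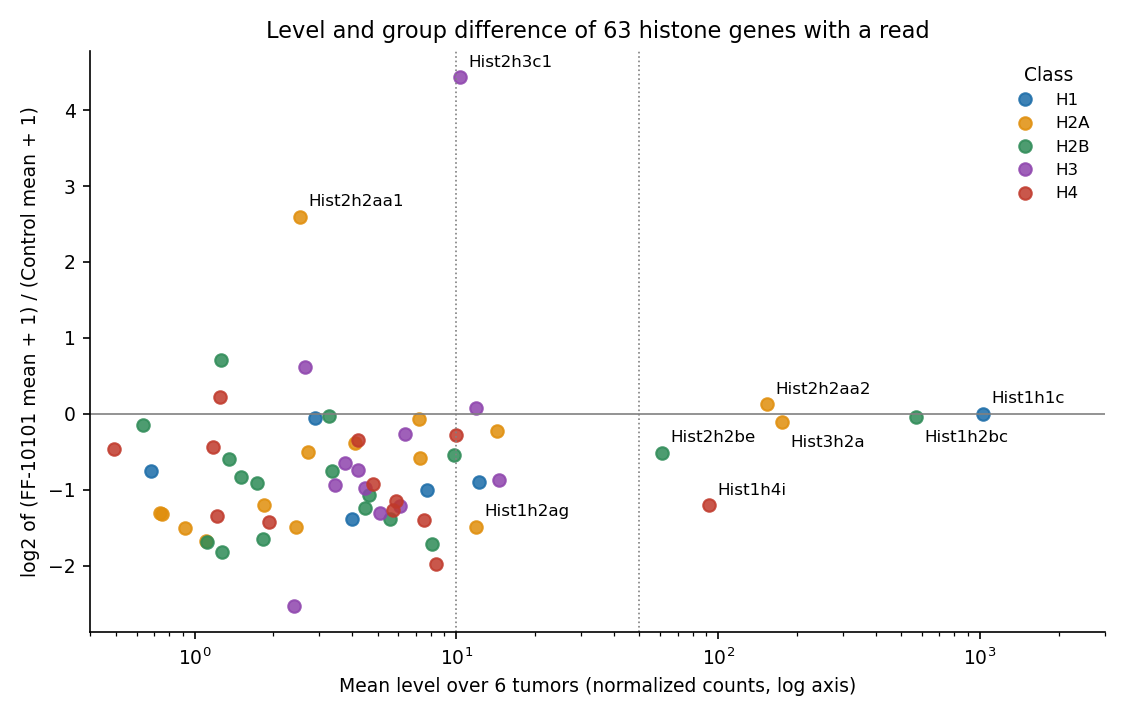
Mean level over the 6 tumors (normalized counts, log axis) against the log2 ratio of group means with 1 count added to each, for the 63 histone genes with a read, colored by class. Dotted lines mark means of 10 and 50, most genes left of 10 lie below 0 (47 of 51), and *Hist1h1c* and *Hist1h2bc* at the far right lie close to 0.

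Single low genes show how few counts lie behind the sum. *Hist1h4n*, an H4 gene, had 4.50, 19.6 and 17.7 normalized counts in the Control tumors and 2.29, 4.34 and 1.78 in the FF-10101 tumors, apart by under 1 count. *Hist1h4d*, also H4, had 10.1, 10.9 and 12.2 counts against 12.2, 6.51 and 8.00, with overlap. Of the other leading low genes, *Hist1h1e*, which encodes H1.4, had 6.75, 15.2 and 9.98 counts against 7.64, 3.26 and 3.56. *Hist1h2be*, an H2B gene, had 14.6, 10.9 and 9.98 counts against 8.40, 9.77 and 5.33 and did not overlap, apart by under 1 count. Its nearest tumors, Control replicate 3 and FF-10101 replicate 2, had 9 reads each.

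By class, the low genes of H2B, H3 and H4 separated the groups and those of H1 and H2A did not. Low H2B genes summed to 69.8, 79.3 and 62.1 normalized counts in the Control tumors and to 26.7, 34.7 and 26.7 in the FF-10101 tumors, a ratio of 0.417. Low H3 genes summed to 41.7, 47.8 and 65.4 against 35.1, 21.7 and 18.7 (ratio 0.487), and low H4 genes to 50.7, 92.4 and 77.6 against 36.7, 36.9 and 21.3 (ratio 0.430). Low H1 genes (ratio 0.460) and low H2A genes (ratio 0.641) had lower means too, with 1 tumor each across the other group's range. Whether the classes differ from each other was not tested.

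In the H1 and H2B classes, 1 gene held most of the counts. The H1 genes summed to 1185, 1023 and 974 normalized counts in the Control tumors and to 1114, 994 and 1020 in the FF-10101 tumors, a log2 ratio of −0.02 (0.06 without Control replicate 1). Without *Hist1h1c* the remaining 5 genes summed to 29.3, 44.5 and 37.7 against 26.0, 15.2 and 12.4, a log2 ratio of −1.06. The H2B genes summed to 652, 729 and 782 against 692, 633 and 595 (log2 ratio −0.17), and without *Hist1h2bc* to 133, 154 and 141 against 74.9, 97.7 and 66.7 (log2 ratio −0.84). In both classes the groups overlapped with the leading gene and separated without it.

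The H4 genes had the log2 ratio farthest from 0 of the 5 classes, with sums of 110, 245 and 252 normalized counts in the Control tumors and 123, 76.0 and 62.2 in the FF-10101 tumors (log2 ratio −1.22). Control replicate 1 lay below FF-10101 replicate 1, so the groups overlapped, while without *Hist1h4i* they did not (50.7, 92.4 and 77.6 against 36.7, 36.9 and 21.3). The H2A genes summed to 571, 310 and 323 against 380, 358 and 381 (log2 ratio −0.10), but without Control replicate 1 the log2 ratio was 0.24 and all FF-10101 tumors lay above the remaining Control tumors. For the H3 genes the sums were 83.3, 60.9 and 103 against 82.5, 57.5 and 64.0 (log2 ratio −0.28). Both classes overlapped with all tumors, and their sums include the copies of the Hist2 cluster. The low genes of that cluster held little of the low sum: without them it was 214, 261 and 256.2 against 141, 118 and 83.6.

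**Figure D4:**
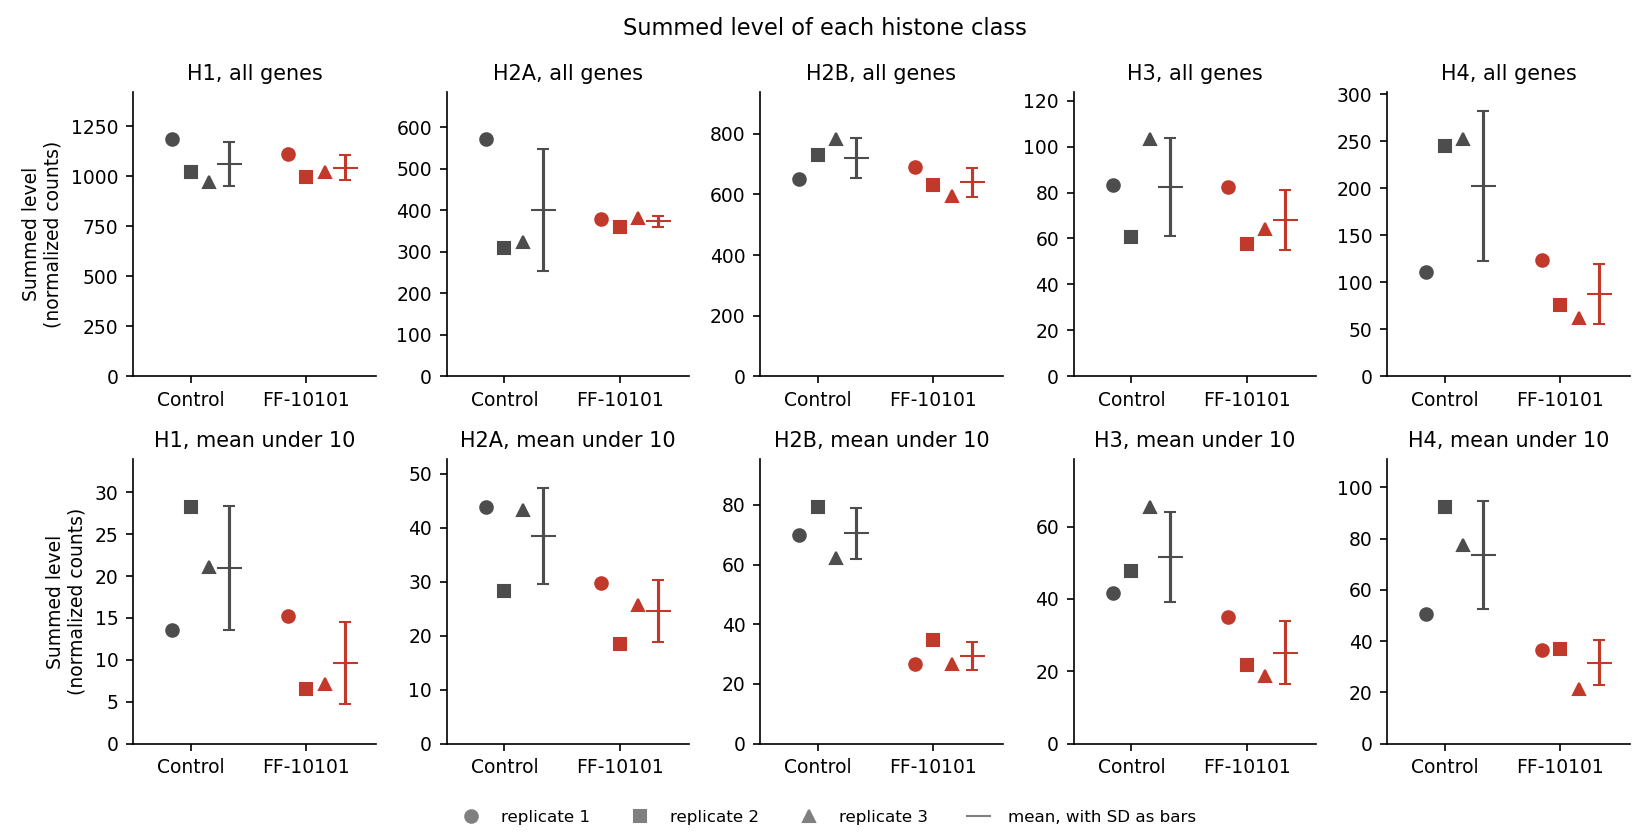
Summed normalized counts of each histone class, over all its genes (top) and over its genes with a mean under 10 (bottom), with 1 point per tumor, the symbol giving the replicate, and the group mean with its SD (n = 3). In the top row the groups overlap in every class. The log2 ratios there are −0.02 to −0.28 for H1, H2A, H2B and H3 (with H1 at 0.06 and H2A at 0.24 without Control replicate 1) and −1.22 for H4. In the bottom row the H2B, H3 and H4 groups do not overlap.

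The low sum was also divided by features that its definition did not use. The parts hold the same reads and tumors as the sum, so they describe it and are no separate support. By annotated 3' end, the low genes that end at most 100 bases past the stem-loop summed to 73.2, 81.5 and 94.3 normalized counts in the Control tumors and to 36.7, 34.7 and 41.8 in the FF-10101 tumors (ratio 0.455). Those annotated farther past the stem-loop gave 86.7, 112 and 115 against 67.2, 57.5 and 43.6 (ratio 0.536). The 15 genes whose annotation stops at the coding sequence gave 36.0, 53.2 and 28.8 against 20.6, 8.69 and 10.7 (ratio 0.338). The other 7, annotated farther but with no stem-loop found, gave 23.6, 29.3 and 31.1 against 19.1, 17.4 and 3.56 (ratio 0.476). All 4 kinds had every FF-10101 tumor below every Control tumor. The 10 low genes with a poly(A) signal at their annotated end had a ratio of 0.528 and overlapped (38.3, 59.8 and 44.4 against 25.2, 40.2 and 9.78).

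Many of these genes also resemble each other: the median histone gene had 39.8% of its 31-base words in no other gene, and 5 genes had none. Low genes with at least 50% of words of their own summed to 83.3, 118 and 120 normalized counts against 68.7, 67.3 and 47.1 (ratio 0.570). Those with less summed to 136, 158 and 150 against 74.9, 51.0 and 52.4 (ratio 0.402). Neither set overlapped between the groups, and both are parts of the same low sum.

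Because histone mRNA is tied to S phase, the low sum was set beside 45 DNA replication and S phase genes. These summed to 21803, 31702 and 35747 normalized counts in the Control tumors and to 24268, 17213 and 16598 in the FF-10101 tumors, with overlap because Control replicate 1 lay below FF-10101 replicate 1. No gene of the list was called by limma or by limma-voom. At an unadjusted p under 0.05, limma gave 21 lower (7.49% of all genes) and 0 higher (8.77%). The log2 fold change was below 0 in 43 of the 45 and the median log2 fold change was −0.60. Without Control replicate 1, limma called 28 of the 45 lower, against 9.88% of all genes.

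*Pcna*, the sliding clamp of replication, had 2068, 2466 and 3086 normalized counts against 1816, 1445 and 1420, without overlap (log2 fold change −0.69 ± 0.19; limma, adjusted p = 0.229). *Mcm2* of the replicative helicase (log2 fold change −0.88), *Rrm2* of ribonucleotide reductase (−0.74) and *Ccne2*, cyclin E2 (−0.71), had limma adjusted p values of 0.255, 0.288 and 0.507. The 25 G2 and mitosis genes all had log2 fold changes below 0, and none was called by limma or limma-voom (13 lower at an unadjusted p under 0.05, against 7.49% of all genes). Of these, *Top2a*, a topoisomerase, and *Mki67*, which encodes the Ki-67 antigen, had log2 fold changes of −0.49 and −0.14. Without Control replicate 1, 21 of the 25 were called lower by limma, against 9.88% of all genes.

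Per 1000 S phase counts, the low histone genes gave 10.1, 8.71 and 7.54 counts in the Control tumors and 5.92, 6.88 and 6.00 in the FF-10101 tumors. The groups did not overlap in this ratio, but the margin was narrow. The nearest tumors, Control replicate 3 and FF-10101 replicate 2, rest on 243 and 109 histone reads. Whether the gap exceeds counting error was not tested, and the low band was chosen after the values were seen. The plot of the low histone sum against the S phase sum shows Control replicate 1 and FF-10101 replicate 1 at similar S phase sums (21803 and 24268) and different histone sums (219.5 and 144). For the 6 abundant histone genes the same ratio was 105.5, 64.0 and 57.8 against 89.4, 113 and 118, with overlap.

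**Figure D5:**
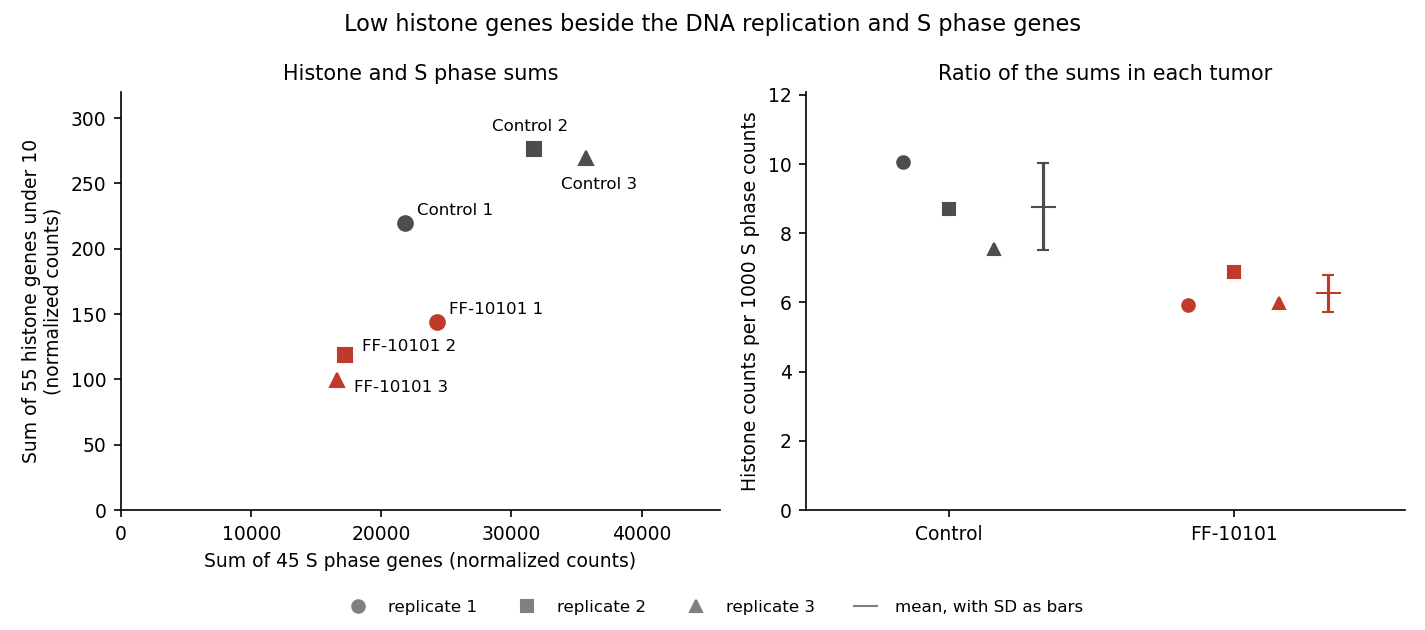
Left, sum of the 55 histone genes with a mean under 10 against the sum of 45 S phase genes, both in normalized counts, for each tumor. Right, the ratio of the 2 sums per 1000 S phase counts, with the group mean and SD (n = 3), which ran from 7.54 to 10.1 in Control and from 5.92 to 6.88 in FF-10101 tumors.

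The replication-independent histones are mostly not confined to S phase and carry a poly(A) tail, although *H2afx*, as shown above, also carries the stem-loop. They were not called by limma or limma-voom either (0 of 11, with 5 lower at an unadjusted p under 0.05, against 7.49% of all genes). Their median log2 fold change was −0.43. For 2 of them the groups did not overlap, in the lower direction, against 9.37% of the 13963 genes. *H2afj*, an H2A variant, had 697, 618 and 811 normalized counts in the Control tumors and 396, 360 and 321 in the FF-10101 tumors (log2 fold change −0.97 ± 0.17; limma, adjusted p = 0.184), and *H1fx*, a linker variant, had a log2 fold change of −0.64 ± 0.22 (limma, adjusted p = 0.25). *H2afz*, the H2A.Z variant, had 5533, 8775 and 11643 normalized counts in the Control tumors and 6042, 3674 and 3584 in the FF-10101 tumors (log2 fold change −0.94 ± 0.31; limma, adjusted p = 0.244). *H2afx*, the damage-marking H2A.X, had a log2 fold change of −0.78, and *H1f0*, the linker of resting cells, −0.41. These 3 genes overlapped between the groups. The 2 genes for histone H3.3 lay near 0, with log2 fold changes of −0.15 for *H3f3a* and 0.10 for *H3f3b*. Without Control replicate 1, 6 of the 11 were called lower by limma, against 9.88% of all genes.

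The genes of the machinery that makes histone mRNA were described in the same way. Of 14 tested genes for histone gene transcription and 3' end processing, 11 had log2 fold changes below 0, with a median of −0.25. None was called by limma or limma-voom (1 lower at an unadjusted p under 0.05, against 7.49% of all genes). *Slbp*, the stem-loop binding protein, had 653, 828 and 854 normalized counts in the Control tumors and 728, 532 and 577 in the FF-10101 tumors (log2 fold change −0.35 ± 0.18; limma, adjusted p = 0.374). *Npat* and *Casp8ap2*, which act in histone gene transcription, had log2 fold changes of 0.01 each, and both were below 0 after quantile normalization. Of 14 histone chaperones, 12 had values below 0, with a median of −0.30. Again none was called by limma or limma-voom (2 lower at an unadjusted p under 0.05, against 7.49% of all genes). *Asf1b*, which hands H3 and H4 to the assembly machinery, had 239, 373 and 500 counts against 237, 168 and 186 (log2 fold change −0.86 ± 0.29; limma, adjusted p = 0.244), and *Chaf1b* of the chromatin assembly factor had a log2 fold change of −0.43. *Nasp*, a chaperone of H3 and H4, had a log2 fold change of −0.11.

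Small RNAs that lack a poly(A) tail were set beside the histone genes, since their sampling depends on how the library was made. The 10 of them in the table summed to 5.63, 27.2 and 57.7 normalized counts in the Control tumors and to 6.87, 9.77 and 16 in the FF-10101 tumors. Among them *Rpph1*, the RNA of RNase P, had 4.50, 8.69 and 25.5 counts against 5.35, 4.34 and 3.56, and *Rmrp* had 0, 9.78 and 18.9 against 0, 0 and 7.11. The small nucleolar RNAs summed to 4.50, 27.2 and 31.1 counts against 10.7, 10.9 and 8.00. In both sums Control replicates 2 and 3 were the highest tumors and Control replicate 1 was the lowest. The sums of Control replicate 1 rest on 5 and 4 reads, close to the 3 reads that a count of 0 allows. The part of tail-less RNA sampling in the histone values was not tested.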

How the data were processed

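Bulk RNA of 6 subcutaneous tumors (3 Control, 3 FF-10101, grouped by the labels) was analysed. The authors trimmed reads with fastp version 0.19.5, quantified them with Salmon version 1.5.1 on GENCODE vM27 and used DESeq2 version 1.22.1, per the study's methods and processing notes. The deposited table holds log2 values from a variance-stabilizing transformation by the authors, with replicates not pooled. Inverting it gave normalized counts and whole reads for 100% of values. Genes were tested with limma version 3.58.1 in R version 4.3.3 on log2(normalized count + 1), with eBayes and a trend, over the 13963 genes averaging 10 or more, and p values were corrected by Benjamini-Hochberg. This scale understates the change of low genes. The script was tested on simulated data. The table had been planned for as normalized counts. Salmon divides reads among near-identical copies by estimation, and lengths, stem-loops, poly(A) signals and 31-base words came from vM21, another build than the authors used, so no coordinates are given.

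The histone genes and gene lists were chosen with earlier results of these data known. Genes named are the 3 most abundant of each class, the 3 highest and 3 lowest log2 fold changes among tested members, any member called, and a fixed list of related genes. Others are named where a count of 5 or fewer or a shared sequence singled them out, after their values were seen. Alternatives were other pseudocounts, minimum counts, scalings, weights, limma-voom, a replicate block and each tumor left out. The split by mean level, the sums by 3' end, by shared sequence and by gene cluster, and their alternatives, were chosen after seeing the data.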

Additional observations from a re-analysis of the deposited data

How the results depend on the processing

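No histone gene was called by limma with all 6 tumors. The count was 1 of 63 without a minimum count, against 0.0707% of all genes. Without a trend it was 1 of 12, with 4 higher and 2 lower among all 13963 genes. With array weights it was 6 of 12, a smaller share than the 8365 of 13963 genes called. When each tumor was left out in turn it was 0 to 3. Without Control replicate 1 it was 3 of 12 (2 higher, 1 lower), with 12% of all genes called higher and 9.88% lower. S phase genes called were 0, 42 with array weights, and 0 to 28 with a tumor left out, and all genes called were 6, 17 without a minimum count, 3 with a mean of at least 50, 8365 with array weights, 1 with a replicate block and 1 to 3051 with a tumor left out. Array weights gave Control replicate 1 a weight of 0.139 and FF-10101 replicate 2 a weight of 8.08. The median log2 fold change of tested histone genes, −0.11, was −0.93 without a minimum count (63 genes in place of 12), −0.30 after quantile normalization and −0.33 (without Control replicate 1) to 0.0032 (without FF-10101 replicate 2) with a tumor left out. The H3 sum over members of at least 10 had a log2 ratio of 0.48, with *Hist2h3c1* among only 3 genes, against −0.28 for all members, and the sums without the leading member were −1.06 for H1 and −0.84 for H2B.

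The replicate numbers did not pair the tumors (correlations of same-numbered deviations −0.288, −0.040 and −0.277). With the replicate block 0 histone genes were called. The block does not change group differences on the log2 scale, and the mean difference of the log2 low sums was −1.09. The log2 ratio of the group means, another statistic, was −1.08.

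Signs turned for genes near 0. Array weights gave 0.041 for *Hist3h2a*, −0.48 for *Npat*, −0.20 for *Casp8ap2* and 0.042 for *H3f3a*. Quantile normalization gave −0.011 for *Npat* and −0.010 for *Casp8ap2*, and the deposited values gave −0.0044 for *Npat*. With a tumor left out, the range was −0.054 to 0.098 for *Hist1h1c*, −0.21 to 0.17 for *Hist3h2a*, −0.014 to 0.79 for *Hist2h2aa2*, −0.54 to 0.19 for *Hist1h2ae*, −0.12 to 0.033 for *Hist1h2bc*, −0.18 to 2.26 for *Hist2h3c2*, −0.35 to 0.25 for *Npat*, −0.14 to 0.084 for *Casp8ap2*, −0.45 to 0.12 for *Mki67* and −0.32 to 0.073 for *Nasp*. The cause of these moves was not tested. Depth limits single low genes, whose counts lay near the 3 reads that a count of 0 allows.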
